A study of Arabidopsis thaliana with 12 samples.

Results

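Leaves of the Arabidopsis thaliana accession Ws were set against leaves of the accession Col, in plants that received no salt. The arrays were chosen by their sample titles: 2 arrays of unsalted Ws and 2 of unsalted Col, that is 4 of the 12 arrays in the study, with the line Col(gl) left out. On each array 22746 probe sets were examined, after 64 control probe sets were set aside from the 22810 in the table. The study grew 3 genotypes (Ws, Col(gl) and Col), each with and without NaCl raised in steps to 100 mM, and hybridised 2 biological replicates of each combination to Affymetrix arrays. The Ws and Col plants compared here grew on soil in a growth chamber, were fed a nutrient solution with no added NaCl, and were harvested as leaf 20 days after sowing, when the treated plants had been under salt for 6 days. The seed stocks and the number of plants behind each RNA sample are not given in the sources used here, and neither are batches or scan dates.

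Ws (Wassilewskija) and Col (Columbia) are inbred natural accessions, so a difference between them gathers all the sequence variation by which their genomes differ, including genes that one accession lacks or carries in a diverged form. Among accessions, genes of pathogen recognition and defence, of secondary metabolism and of the response to cold and drought are known to vary widely in leaf transcript level. Col also supplied the reference genome from which the probes of this kind of array were designed, each probe set being a group of short probes read as 1 signal. A lower transcript level in Ws and a poorer match of Ws transcripts to the probes cannot be told apart from 1 signal per probe set. In whole leaves, fewer cells of a type and less RNA per cell cannot be told apart either.

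Values below are log2 RMA signals, so that a difference of 1 log2 unit is a doubling, and differences are Ws minus Col. A probe set was called when limma's moderated test, fitted to all 12 arrays, gave a Benjamini-Hochberg adjusted p under 0.05 over all 22746 probe sets. The arrays of a group resembled each other closely: the pooled replicate SD was 0.1445 in Ws and 0.1492 in Col, and the replicate correlation over probe sets was 0.996 in both. Among salted arrays, replicate 1 of Ws and of Col stood apart in the gap between 3′ and 5′ control probes, a sign of RNA integrity. For actin the gap was 1.98 and 0.70 in salted Ws and 1.65 and 0.87 in salted Col, and for GAPDH 0.31 and 0.04 in salted Ws and 0.34 and 0.11 in salted Col. These arrays enter the spread and the 100 mM results, which are therefore also given without both, and the part of RNA integrity was not tested. Leaf identity could be checked on 1 mesophyll marker named in the table, RCA (AT2G39730), the activase of the carbon-fixing enzyme Rubisco, which gave 14.01 and 14.06 in Ws and 14.00 and 13.96 in Col. Mean lower quartiles were 4.32 in Ws and 4.39 in Col. A group mean at or under its group's mean lower quartile is not shown to be above background. A fold against it is given as a lower bound, taken from the mean of the other group to that quartile.

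The unsalted leaves of Ws and Col differed in 3594 probe sets, 15.8% of those tested, of which 1929 (8.48%) were higher and 1665 (7.32%) lower in Ws. Small differences leaned towards higher signal in Ws and large ones towards lower signal. At 1 log2 unit or more, 367 (1.61%) were higher and 634 (2.79%) lower, and at 2 units or more 39 (0.171%) were higher and 173 (0.761%) lower. At 4 units or more, 1 was higher and 30 were lower, while the median difference over all probe sets was -0.00. Without salt-treated arrays in the estimate of spread more probe sets passed: a fit of the 4 arrays alone called 5972 (26.3%), 14.5% higher and 11.8% lower in Ws. Without both salted replicate 1 arrays 6448 passed. With 1 array left out fewer passed, 1643 without Ws replicate 1, 1792 without Ws replicate 2, 1732 without Col replicate 1 and 2089 without Col replicate 2.

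**Figure D1:**
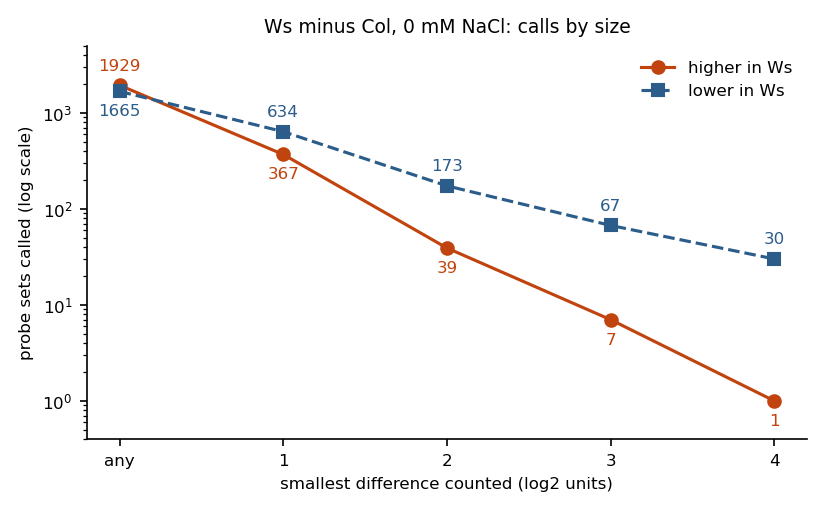
Probe sets called between unsalted Ws and Col leaves (vertical axis, log scale) against the smallest difference counted (horizontal axis, log2 units), for those higher in Ws (circles, solid line) and lower in Ws (squares, dashed line). Higher calls lead when every size is counted (1929 higher, 1665 lower), and lower calls lead from 1 unit upward (367 higher, 634 lower).

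In the 15 genes with the largest lower signals in Ws, the Ws mean was at or under the lower quartile in 8 and above it in the others. The locus with the largest difference, AT1G66100, gave 3.96 and 4.09 in Ws and 12.25 and 12.23 in Col. The Ws signals lay under the lower quartile, so the gene was at least 242-fold lower in Ws (fitted difference -8.22 ± 0.14 SE, adjusted p = 2.8e-09). ECS1 (AT1G31580), a pathogen-inducible gene first described for its expression in only some accessions, gave 6.69 and 5.53 in Ws and 13.70 and 13.64 in Col. It was 189-fold lower in Ws (-7.57 ± 0.36, adjusted p = 2.2e-06), far beyond the gap between the Ws arrays.

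AT3G22240, a locus with no symbol in RefSeq, gave 6.71 and 6.21 in Ws and 13.13 and 13.04 in Col (-6.63 ± 0.16, adjusted p = 1.5e-08). AT1G76960, AT3G47250 and AT2G32160 were at least 83.1-fold, 55.2-fold and 48.6-fold lower in Ws, where each mean lay under the lower quartile. The groups did not overlap in any of the 15, as the rule for naming genes requires. Among the rest, AT5G03350, DFR, AT1G35710, AT3G28220 and AT1G73490 lay above the quartile in Ws, with differences from -4.85 to -4.13. ZW9 (AT1G58270), AT1G23960, AT3G44630 and AT1G63880 had Ws means at or under it, and were at least 22.4-fold, 22.8-fold, 15.5-fold and 17-fold lower in Ws. Only 3 of the 15 carry a RefSeq symbol, so most have no function that can be stated here.

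**Figure D2:**
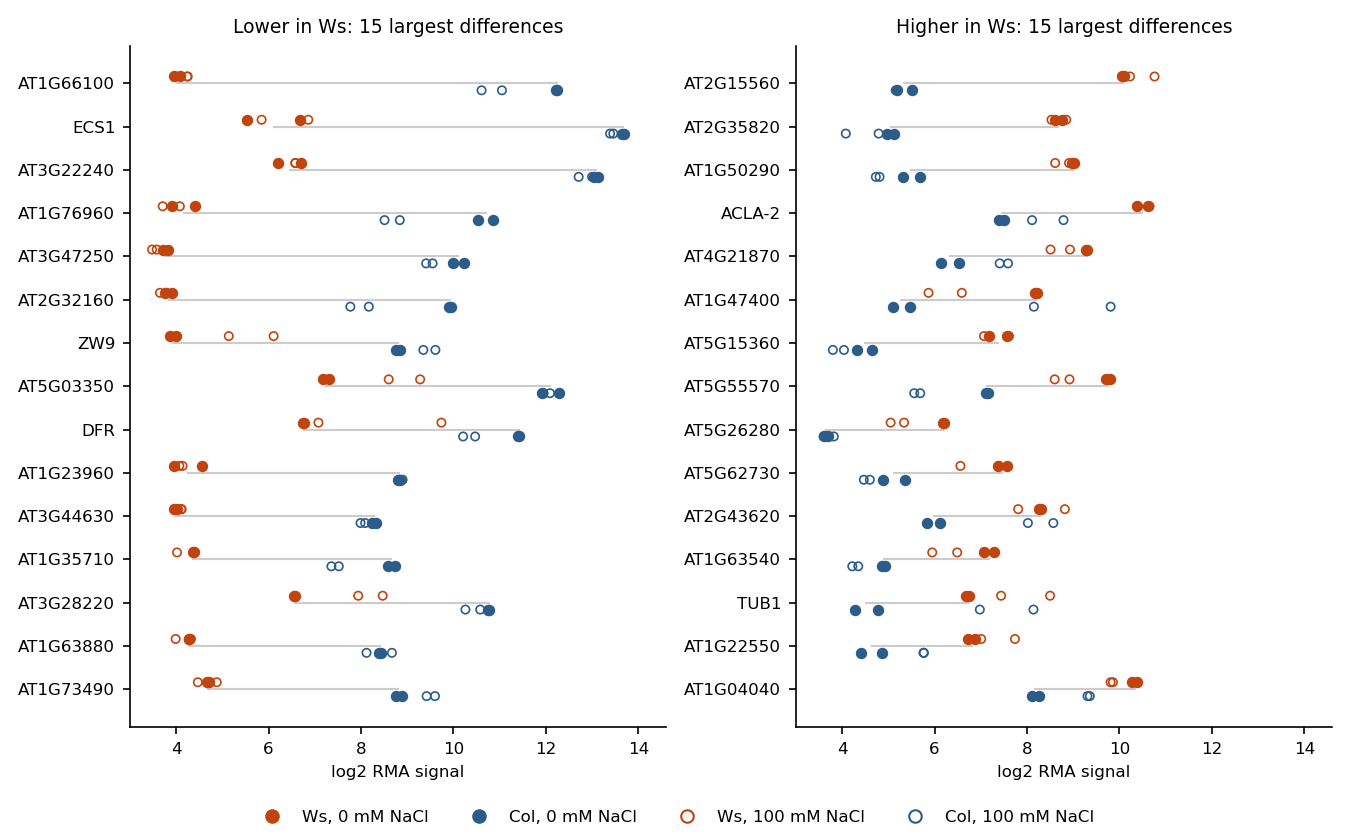
Log2 RMA signal of each array for the 15 genes with the largest lower (left panel) and the 15 with the largest higher (right panel) signal in unsalted Ws against unsalted Col. Filled points are arrays without salt and open points arrays at 100 mM NaCl, with Ws in orange above Col in blue, and the grey line joins the unsalted means. The lower genes are bright in Col, up to 13.70 for ECS1, and 8 of the 15 sit at or under the lower quartile in Ws.

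The next lower genes come from a ranking of genes with a RefSeq symbol, added after the values were seen. CHI (AT2G43570), annotated as a chitinase, an enzyme class that attacks fungal cell walls, gave 5.65 and 5.24 in Ws and 9.37 and 9.46 in Col (-3.97 ± 0.33, adjusted p = 6e-05). CSA1 (AT5G17880), an intracellular resistance protein of the TIR-NB-LRR class, gave 3.66 and 3.87 in Ws and 6.94 and 6.98 in Col, at least 6.23-fold lower in Ws (adjusted p = 1e-06). That ranking took only called genes whose groups do not overlap, so the separation of these groups adds no support.

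QQS (AT3G30720), an Arabidopsis-specific gene that affects leaf starch content, gave 5.01 and 4.17 in Ws and 7.95 and 7.99 in Col (-3.38 ± 0.27, adjusted p = 4.3e-05). PDC2 (AT5G54960), a pyruvate decarboxylase of ethanol fermentation, gave 7.07 and 7.01 in Ws and 9.43 and 9.47 in Col (-2.41 ± 0.25, adjusted p = 0.00025). Also lower in Ws were the beta-glucosidase gene BGLU47 (AT4G21760, -2.45), the jasmonate-regulated gene JRG21 (AT3G55970, -2.33) and BETA-VPE (AT1G62710, -2.31), a vacuolar processing protease. All of these were called in every fit tried.

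The flavonoid and anthocyanin list held the lowest median of the 30 lists with at least 3 measured members. Of its 8 measured genes 5 were lower in Ws and 0 were higher, and the list median was -1.99, against 7.32% called lower and a median of -0.00 over all probe sets. DFR (AT5G42800), the reductase that commits the pathway to anthocyanins, gave 6.77 and 6.75 in Ws and 11.40 and 11.43 in Col. It was 25.2-fold lower in Ws (-4.66 ± 0.62, adjusted p = 0.001), with groups far apart.

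The enzymes that decorate the pigment were lower as well. UF3GT (AT5G54060), which adds xylose to anthocyanins, gave 6.70 and 7.04 in Ws and 10.51 and 10.52 in Col (-3.64 ± 0.21, adjusted p = 5.6e-06). AT5MAT (AT3G29590), which attaches malonate, gave 4.62 and 4.51 in Ws and 7.83 and 7.48 in Col (-3.08 ± 0.35, adjusted p = 0.00039). Both genes are also in the ranking by symbol, which took only called genes whose groups do not overlap.

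CHIL (AT5G05270), a chalcone-isomerase-like protein of the early pathway, gave 7.93 and 7.92 in Ws and 10.24 and 10.08 in Col (-2.24 ± 0.37, adjusted p = 0.0034). UGT78D2 (AT5G17050), a flavonoid 3-O-glucosyltransferase, gave 8.81 and 8.95 in Ws and 10.57 and 10.65 in Col (-1.73 ± 0.15, adjusted p = 9e-05). The 3 members that did not pass were UGT78D1 (AT1G30530, -0.37, adjusted p = 0.31) and UGT78D3 (AT5G17030, -0.15, adjusted p = 0.66), which glycosylate flavonols, and BAN (AT1G61720, -0.16, adjusted p = 0.41), which acts in the seed coat. Each of the fits that left out 1 array also called 5 members.

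**Figure D3:**
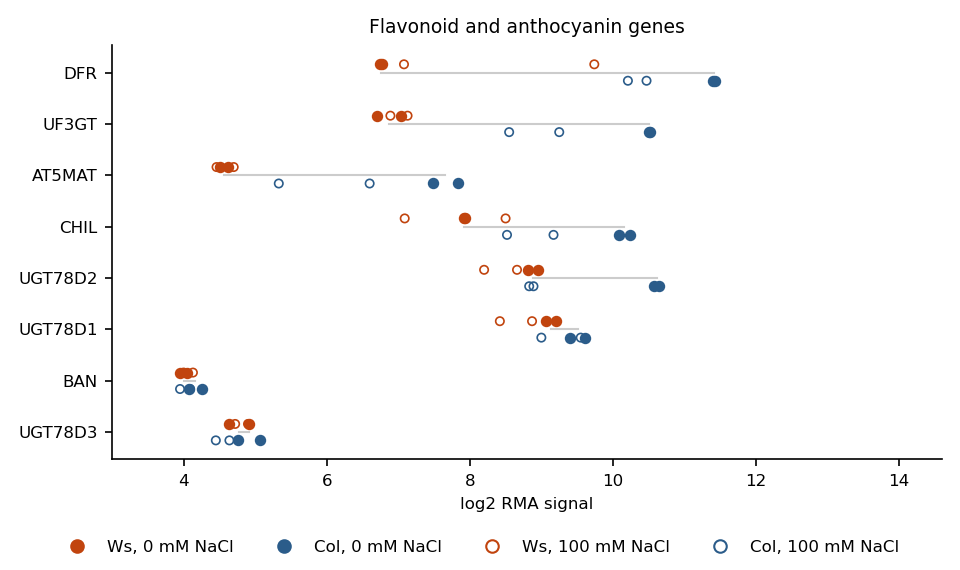
Log2 RMA signal of each array for the 8 measured flavonoid and anthocyanin genes, ordered by the unsalted difference. Filled points are arrays without salt and open points arrays at 100 mM NaCl, with Ws in orange above Col in blue, and grey lines join the unsalted means. The unsalted groups lie far apart in DFR, UF3GT, AT5MAT, CHIL and UGT78D2, and the 3 lowermost genes were not called.

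Of 6 measured members of the abscisic acid and dehydration list, which holds genes that protect membranes and proteins in dry or cold leaves, 3 were lower in Ws and 0 higher, where 7.32% of all probe sets were lower. All 6 differences were negative, with a median of -0.99, where the median over all probe sets was -0.00. COR15B (AT2G42530), a cold-regulated chloroplast protectant, gave 7.50 and 7.73 in Ws and 9.26 and 9.14 in Col (-1.59 ± 0.14, adjusted p = 9.7e-05). Its neighbour COR15A (AT2G42540), of the same function, gave 10.49 and 10.76 in Ws and 11.77 and 11.65 in Col (-1.08 ± 0.18, adjusted p = 0.0035).

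The dehydrin LTI30 (AT3G50970) gave 4.25 and 4.70 in Ws and 6.19 and 5.85 in Col (-1.55 ± 0.32, adjusted p = 0.011). The dehydrin COR47 (AT1G20440) gave 8.87 and 8.85 in Ws and 9.81 and 9.73 in Col, but was not called (adjusted p = 0.058). The list count fell to 2 without Ws replicate 1 and without Col replicate 1, and was 5 in the fit of the 4 arrays alone, which called 11.8% of all probe sets lower. The clock gene GI (AT1G22770), which links day length to flowering, gave 7.30 and 7.38 in Ws and 8.46 and 8.33 in Col (-1.05 ± 0.17, adjusted p = 0.0025). It was the called member of 5 measured clock genes (20% called, against 15.8% of all probe sets).

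Sugar transport genes moved in both directions. Of 22 measured starch and sugar genes 2 were lower and 3 higher in Ws (22.7% called, against 15.8% of all probe sets, median -0.02). SWEET13 (AT5G50800), a sucrose exporter of the leaf phloem, gave 5.47 and 5.79 in Ws and 8.27 and 8.43 in Col (-2.72 ± 0.23, adjusted p = 6.5e-05). SWEET2 (AT3G14770), a vacuolar sugar transporter, gave 9.34 and 9.31 in Ws and 8.32 and 8.17 in Col (1.08 ± 0.22, adjusted p = 0.009), but it was not called without Ws replicate 1, Ws replicate 2 or Col replicate 2.

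SWEET16 (AT3G16690), a transporter of the vacuolar membrane, was 1.09 ± 0.18 log2 units higher in Ws (adjusted p = 0.0032), and APL4 (AT2G21590), a large subunit of the starch-synthesis enzyme ADP-glucose pyrophosphorylase, was 0.77 ± 0.13 higher (adjusted p = 0.0042). The cell wall invertase family gene cwINV6 (AT5G11920) was 1.16 lower (-1.16 ± 0.13, adjusted p = 0.00035). The family of SWEET transporters thus held called members on both sides.

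A similar split was seen among cytochrome P450 genes. Of 22 measured P450 genes 5 were lower and 2 higher in Ws (31.8% called, against 15.8% of all probe sets, median -0.10). CYP71B24 (AT3G26230) gave 4.72 and 4.39 in Ws and 7.43 and 7.51 in Col (-2.92 ± 0.15, adjusted p = 2.5e-06), and CYP71B26 (AT3G26290) gave 8.50 and 8.52 in Ws and 10.74 and 10.67 in Col (-2.20 ± 0.24, adjusted p = 0.00031). CYP71B23 (AT3G26210) was also lower (-1.33 ± 0.18, adjusted p = 0.001).

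CYP71B35 (AT3G26310) gave 8.40 and 8.61 in Ws and 7.61 and 7.39 in Col, and was higher in Ws (1.00 ± 0.16, adjusted p = 0.0028), as was CYP71B34 (AT3G26300, 0.79 ± 0.12, adjusted p = 0.0022). These 5 genes have close locus numbers on chromosome 3 and similar sequences, and whether probes cross-hybridise between copies was not tested. CYP71B16, CYP71B21, CYP71B22, CYP71B25, CYP71B36 and CYP71B37, measured with locus numbers close to theirs, were not called. The other called P450 genes were CYP78A9 (AT3G61880, -0.92), not called in any fit that left out 1 array, and CYP84A4 (AT5G04330, -0.75). Of 47 UDP-glycosyltransferases, which attach sugars to small molecules, 5 were lower and 2 higher, a called share of 14.9%, close to the 15.8% of all probe sets. Their 7 calls dropped to 1 without Ws replicate 1 or Col replicate 1 and to 2 without Ws replicate 2 or Col replicate 2.

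Of 7 measured glucosinolate synthesis genes 2 were lower in Ws and 0 higher (28.6% called). Of 10 measured jasmonate genes 1 was lower and 1 higher (20% called). Over all probe sets 15.8% were called, 7.32% lower and 8.48% higher. The glucosinolate transporter gene GTR2 (AT5G62680) gave 9.03 and 9.19 in Ws and 9.95 and 9.88 in Col (-0.81 ± 0.12, adjusted p = 0.0015). BCAT4 (AT3G19710), which starts methionine chain elongation, gave 11.80 and 11.80 in Ws and 12.49 and 12.50 in Col (-0.69 ± 0.13, adjusted p = 0.0065). AOP3 (AT4G03050), a side-chain-modifying enzyme known to vary among accessions, gave 4.57 and 4.41 in Ws and 4.76 and 4.33 in Col, close to background in both (adjusted p = 0.84).

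In the jasmonate list of 10, the plant defensin gene PDF1.2b (AT2G26020) was lower (-1.05 ± 0.15, adjusted p = 0.0013) and JMT (AT1G19640), which methylates jasmonate, was higher in Ws (0.78 ± 0.18, adjusted p = 0.017). PDF1.2b shares much of its sequence with other PDF1 genes, so its signal is uncertain, and JMT was not called without Ws replicate 1, Ws replicate 2 or Col replicate 2. The glutaredoxin GRX480 (AT1G28480), a salicylate-induced gene, was 1.15 lower (-1.15 ± 0.33, adjusted p = 0.043) and was not called in any fit that left out 1 array. Of 6 WRKY transcription factors 0 were called by limma in either direction, against 15.8% of all probe sets. An unadjusted p under 0.05 was reached by 2 (6606 of 22746 over all probe sets). The fit of the 4 arrays alone called 2, against 26.3% of all probe sets.

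Cell expansion was represented by 27 xyloglucan endotransglucosylases and expansins, which loosen the wall, with 2 lower and 0 higher in Ws, a called share of 7.41% against 15.8% of all probe sets. EXPA16 (AT3G55500) gave 5.45 and 5.54 in Ws and 7.85 and 7.80 in Col (-2.33 ± 0.30, adjusted p = 0.00082). EXPB3 (AT4G28250) was 1.12 lower (-1.12 ± 0.21, adjusted p = 0.0064). The wax ester synthase gene WSD1 (AT5G37300) lay under the quartile in Ws, and was at least 2.47-fold lower (adjusted p = 0.0056).

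The higher transcripts in Ws had smaller differences. The largest was AT2G15560, which gave 10.09 and 10.05 in Ws and 5.51 and 5.18 in Col, 26.6-fold higher in Ws (4.73 ± 0.17, adjusted p = 3.3e-07). AT2G35820 gave 8.60 and 8.75 in Ws and 5.13 and 4.98 in Col (3.62 ± 0.22, adjusted p = 7.7e-06), and AT1G50290 gave 9.02 and 8.98 in Ws and 5.31 and 5.69 in Col (3.50 ± 0.22, adjusted p = 8.4e-06). Neither Ws nor Col lay under the quartile in any of these.

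ACLA-2 (AT1G60810), a subunit of the ATP-citrate lyase that makes cytosolic acetyl-CoA, gave 10.37 and 10.62 in Ws and 7.39 and 7.50 in Col. It was 8.27-fold higher in Ws (3.05 ± 0.21, adjusted p = 1.9e-05). TUB1 (AT1G75780), a beta-tubulin of the cytoskeleton, gave 6.69 and 6.75 in Ws and 4.27 and 4.78 in Col (2.2 ± 0.40, adjusted p = 0.0052), and was not called without Col replicate 1. Of the rest of the 15, AT4G21870, AT1G47400, AT5G15360, AT5G55570, AT5G62730, AT2G43620, AT1G63540, AT1G22550 and AT1G04040 had differences from 2.96 to 2.15. AT5G26280 lay under the quartile in Col, and was at least 3.5-fold higher in Ws. RefSeq gives a symbol to 2 of the 15.

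The next higher genes come from the same ranking by symbol. OTP81 (AT2G29760), a pentatricopeptide protein of plastid RNA editing, gave 6.76 and 6.77 in Ws and 4.90 and 5.03 in Col (1.80 ± 0.11, adjusted p = 8.4e-06). CYTC6A (AT5G45040), a cytochrome c6-like protein of the chloroplast, gave 8.80 and 8.73 in Ws and 7.10 and 7.09 in Col (1.67 ± 0.12, adjusted p = 1.8e-05). ARR15 (AT1G74890), a type-A response regulator of cytokinin signalling, gave 8.06 and 7.90 in Ws and 6.52 and 6.29 in Col (1.57 ± 0.17, adjusted p = 0.00031).

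STOMAGEN (AT4G12970), a mesophyll peptide that raises stomatal density, gave 8.96 and 9.18 in Ws and 7.93 and 7.79 in Col (1.21 ± 0.15, adjusted p = 0.0006). HYH (AT3G17609), a light-signalling bZIP factor related to HY5, gave 7.55 and 7.78 in Ws and 6.74 and 6.15 in Col (1.22 ± 0.26, adjusted p = 0.011). Others called higher were UGT87A2 (AT2G30140, 1.60), the pectin methylesterase gene ATPMEPCRB (AT4G02330, 1.36), the signalling peptide gene CLE27 (AT3G25905, 1.36), FMO (AT1G12200, 1.35), ATNTH1 (AT2G31450, 1.24), a DNA repair endonuclease, CSLA03 (AT1G23480, 1.24), a cellulose-synthase-like gene, EXO (AT4G08950, 1.19), which promotes leaf growth, and RBL (AT3G55510, 1.17). Of these, UGT87A2 and CLE27 were not called in any fit that left out 1 array, EXO was not called without Ws replicate 1, Col replicate 1 or Col replicate 2, and HYH was not called without Ws replicate 2 or Col replicate 2. The copper chaperone for superoxide dismutase, CCS (AT1G12520), gave 9.26 and 9.48 in Ws and 8.29 and 8.42 in Col (1.02 ± 0.13, adjusted p = 0.00086). It was 1 of 2 antioxidant genes called higher of 9 measured (22.2% called, against 15.8% of all probe sets).

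Plastid-encoded transcripts lay higher in Ws as a set of values, though few passed the test. Of 69 measured, 49 differences were positive, with a median of 0.48, where the median over all probe sets was -0.00. Of these 69, 4 (5.8%) were called higher and 0 lower, where 8.48% of all probe sets were called higher. At 100 mM NaCl the list did not lie higher in Ws: its median was -0.19, with 1 called higher and 3 lower. The ribosomal protein gene rpl16 gave 11.37 and 11.62 in Ws and 9.91 and 9.66 in Col (1.71 ± 0.32, adjusted p = 0.0062), and rps4, of the same class, gave 13.35 and 13.43 in Ws and 11.81 and 11.52 in Col (1.72 ± 0.41, adjusted p = 0.021). The others called were rps16 (1.05), also ribosomal, and petL (1.26), a small subunit of the cytochrome b6f complex. Of the 15 alternative fits, rps4 was not called in 5, petL in 4, rpl16 in 3 and rps16 in 1. The counts that follow need not hold the same genes. Called plastid genes numbered 2 without Ws replicate 1, 1 without Ws replicate 2, 4 without Col replicate 1 and 1 without Col replicate 2.

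The spread used in this test includes the salt-treated arrays, whose plastid signals differ widely: the array medians of these 69 transcripts were 8.73 and 11.22 in salted Ws and 9.48 and 11.37 in salted Col, against 11.77 and 11.78 in unsalted Ws and 11.54 and 11.39 in unsalted Col. In the fit of the 4 arrays alone 38 plastid transcripts were called higher in Ws, where 14.5% of all probe sets were, and 7 lower. The 3′ to 5′ gap of the actin control probes was 0.78 and 0.89 in Ws and 0.73 and 0.71 in Col, and its part in the plastid result was not tested. Of 15 nuclear photosynthesis genes 0 were called by limma in the fit to 12 arrays, against 15.8% of all probe sets, and their median difference was 0.06. An unadjusted p under 0.05 was reached by 1 (6606 of 22746 over all probe sets). The fit of the 4 arrays called 1, against 26.3% of all probe sets. PSAE-1 (AT4G28750), a subunit of photosystem I, gave 13.60 and 13.57 in Ws and 13.79 and 13.68 in Col (adjusted p = 0.38).

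Over all lists, 63 of the 382 distinct measured members were called, a share of 16.5% against 15.8% of all probe sets. Lists hold only probe sets listed with 1 gene, and of the 13513 such probe sets 1097 were called higher and 843 lower. Of 5 measured trichome genes, whose products shape leaf hairs, SPK1 (AT4G16340, 0.65, adjusted p = 0.03) was called (20%, against 15.8% of all probe sets). All 5 differences were positive, where the median over all probe sets was -0.00. Of 15 genes in the autophagy and senescence list 20% were called, as were 20% of 10 flowering-time genes, also near the share of all probe sets. In the autophagy and senescence list, genes of the ATG8 family, which coat autophagosomes, were called both ways: ATG8E (AT2G45170, 0.84) and ATG8B (AT4G04620, 0.74) were higher and APG8A (AT4G21980, -0.50) lower in Ws. Among 10 flowering-time genes the floral repressor SMZ (AT3G54990) was lower (-0.97, adjusted p = 0.013) and LD (AT4G02560), which promotes flowering, was higher (0.59, adjusted p = 0.029). SMZ, LD and SPK1 were not called in any fit that left out 1 array, ATG8E was not called without Ws replicate 2 or Col replicate 2, and APG8A was not called without Ws replicate 1 or Col replicate 2.

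Of 17 genes of ion transport and salt tolerance, 2 were lower in Ws and 0 higher, a called share of 11.8% against 15.8% of all probe sets. They were the glutamate-receptor-like channel gene GLR3.5 (AT2G32390, -0.68, adjusted p = 0.029) and the cation exchanger gene chx28 (AT3G52080, at least 1.22-fold lower, adjusted p = 0.032), the second under the quartile in Ws. Of 14 glutathione S-transferases (21.4% called) GSTU26 (AT1G17190, -1.12) was lower and GSTU27 (AT3G43800, 0.51) and GSTF4 (AT1G02950, 0.40) were higher. Among 10 reference genes (10% called) TUB5 (AT1G20010) was called (0.39, adjusted p = 0.04), and the list median was 0.10. GLR3.5, chx28, GSTF4 and TUB5 were not called in any fit that left out 1 array, and GSTU27 was called only without Col replicate 1 among those fits.

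The few called genes of gene silencing and of the organelles were all higher in Ws in this fit. Called shares were 50% of the silencing, 9.09% of the mitochondrion-encoded and 5.8% of the plastid-encoded genes. They were 6.67% in the auxin list and 12.5% in the bHLH list, against 15.8% of all probe sets (8.48% higher). The fit of the 4 arrays alone called 38 plastid genes higher and 7 lower. Of 4 silencing genes, SE (AT2G27100), which acts in microRNA processing, was 0.64 higher (adjusted p = 0.028) and LDL2 (AT3G13682), a histone demethylase homologue, 0.55 higher in Ws (adjusted p = 0.011). Of 11 mitochondrion-encoded genes nad9, a subunit of respiratory complex I, gave 6.22 and 6.10 in Ws and 5.21 and 5.35 in Col (0.88 ± 0.22, adjusted p = 0.025). The auxin repressor gene IAA18 (AT1G51950) was 0.51 higher (adjusted p = 0.022), 1 of 15 in its list, and bHLH115 (AT1G51070), a regulator of iron uptake, 0.68 higher (adjusted p = 0.038), 1 of 8. SE, nad9, IAA18 and bHLH115 were not called in any fit that left out 1 array, and LDL2 was not called without Ws replicate 1 or without Col replicate 1.

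**Figure D4:**
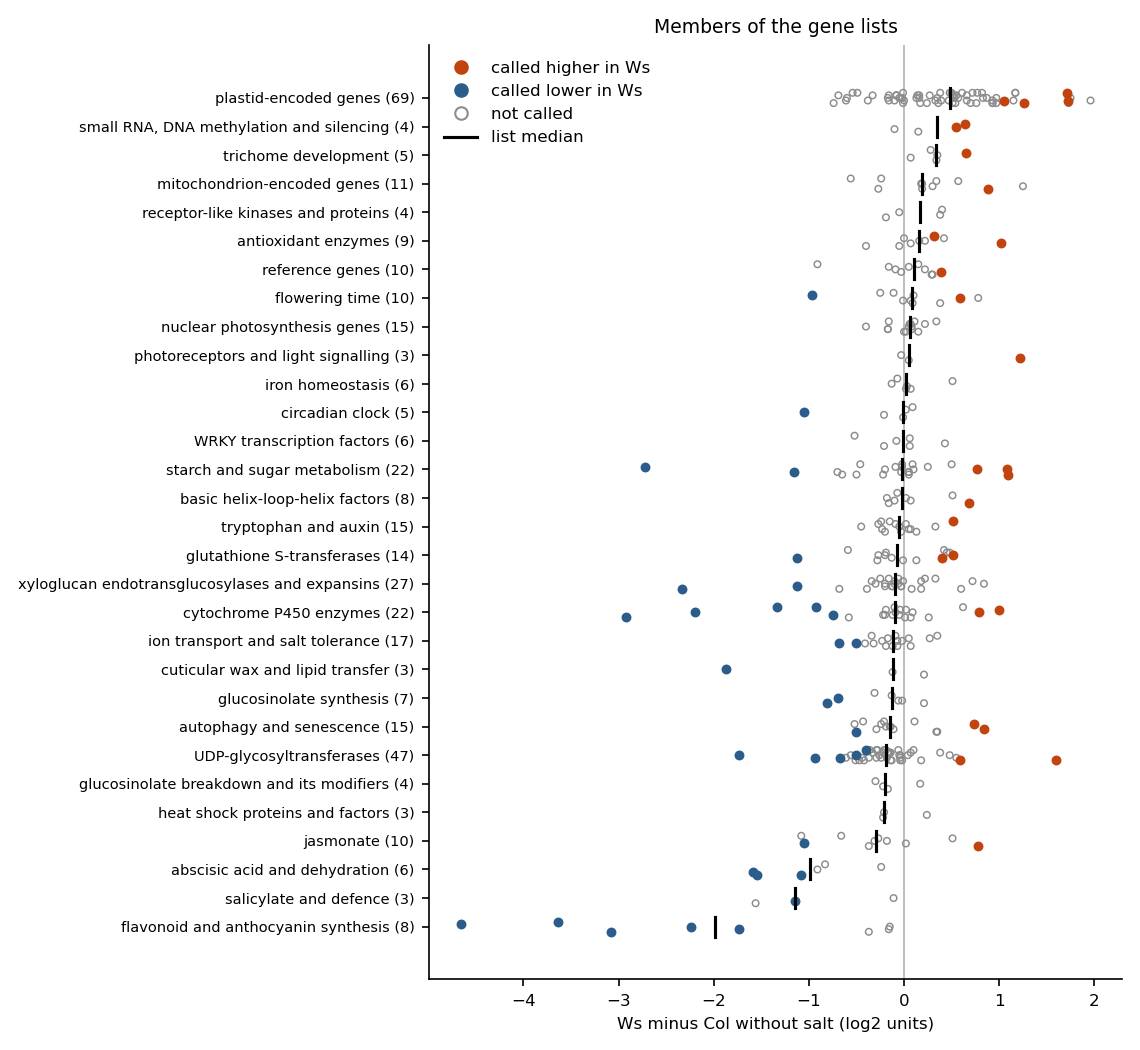
Difference of each measured member of 30 gene lists, Ws minus Col without salt (horizontal axis, log2 units), with the number of members in brackets. Orange points were called higher and blue points lower in Ws, open points were not called, and black bars are list medians. The flavonoid and anthocyanin list has the lowest median (-1.99) and the plastid-encoded genes the highest (0.48).

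The same genotype difference was measured on other arrays, from plants at 100 mM NaCl, which share no array with the unsalted comparison but do share its estimate of spread. There 2896 probe sets (12.7%) were called, 1513 (6.65%) higher and 1383 (6.08%) lower in Ws. A fit of the salted Ws and Col groups alone called only 282. Their pooled replicate SDs, 0.353 in Ws and 0.2971 in Col, were above those without salt, 0.1445 and 0.1492. The shares below use the fit to 12 arrays. Without both salted replicate 1 arrays 3630 were called, 3685 without that of Ws alone and 2189 without that of Col alone. Of the 173 lower by 2 units or more without salt, 125 (72.3%) were also called lower at 100 mM and 0 higher. Of the 39 higher by 2 units or more, 28 (71.8%) were also called higher and 1 lower, AT1G47400. Over calls of any size, 28.4% of the 1929 higher ones and 41% of the 1665 lower ones were called in the same direction at 100 mM.

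Over all probe sets the differences at the 2 salt levels correlated with r = 0.529, a description across probe sets, which are not independent. ECS1 gave 6.86 and 5.85 in salted Ws and 13.46 and 13.39 in salted Col, a fitted gap of -7.07 against -7.57 without salt. AT2G15560 gave 10.76 and 10.23 in salted Ws and 5.16 and 5.19 in salted Col, and PDC2 7.64 and 8.60 in salted Ws and 10.09 and 10.50 in salted Col. For these 3 genes the change of the difference with salt was not called.

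The genotype difference itself changed with salt for 1061 probe sets (4.66%), and for 265 with only the groups compared in the fit. Without both salted replicate 1 arrays it changed for 2525, without that of Ws alone for 2169 and without that of Col alone for 745. CHI gave 8.14 and 9.13 in salted Ws and 8.2 and 9.03 in salted Col, groups that overlap and whose fitted difference was 0.01 (difference of differences 3.99 ± 0.47, adjusted p = 0.0025). AT1G47400 gave 6.59 and 5.87 in salted Ws and 9.81 and 8.15 in salted Col, which turns its direction round (-5.67 ± 0.62, adjusted p = 0.0018). PDF1.2b also turned, with 8.90 and 8.54 in salted Ws and 7.41 and 7.21 in salted Col (2.46 ± 0.21, adjusted p = 0.00052).

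AT1G07050 shows the opposite pattern: it gave 3.82 and 3.72 in unsalted Ws and 4.10 and 4.01 in unsalted Col, all under the quartile, but 3.87 and 3.96 in salted Ws and 8.05 and 8.64 in salted Col (-4.14 ± 0.24, adjusted p = 7.6e-05). LTI30 was lower in Ws at both levels, with 6.71 and 7.55 in salted Ws and 10.34 and 11.18 in salted Col, a gap wider by 2.09 log2 units than without salt (-2.09 ± 0.45, adjusted p = 0.033). Of the anthocyanin genes, UF3GT (1.75, adjusted p = 0.011) and UGT78D2 (1.3, adjusted p = 0.011) had a called change towards a smaller gap, while DFR, with 9.74 and 7.08 in salted Ws and 10.47 and 10.21 in salted Col, did not (2.73, adjusted p = 0.12). Without both salted replicate 1 arrays the change in DFR was smaller and was called (1.53, adjusted p = 0.00059). The genes given here with a called change kept call and sign in that fit, with 4.07 for CHI, -5.20 for AT1G47400, 2.38 for PDF1.2b, -4.39 for AT1G07050, -2.09 for LTI30, 1.29 for UF3GT and 1.51 for UGT78D2.

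**Figure D5:**
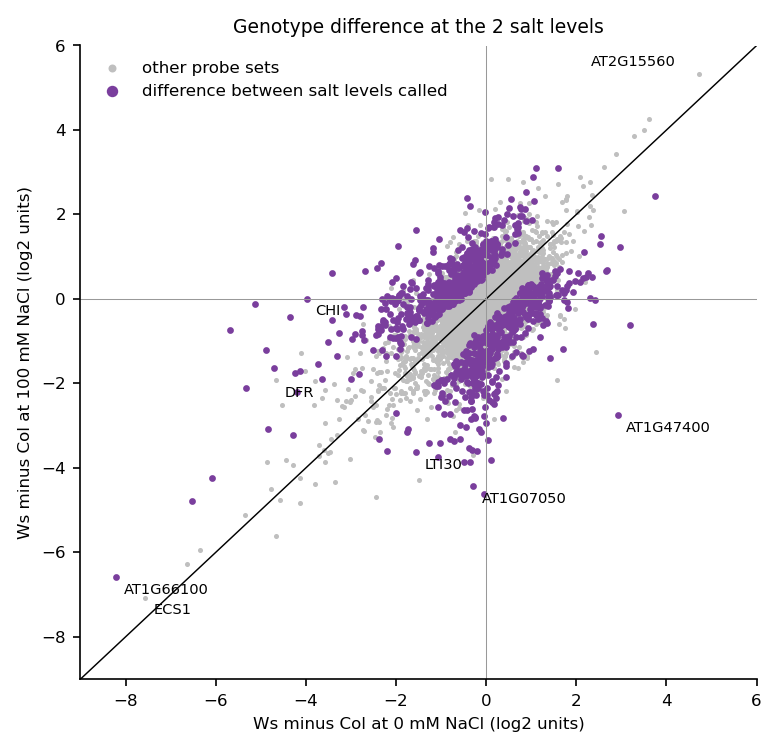
Ws minus Col at 100 mM NaCl (vertical axis) against Ws minus Col at 0 mM NaCl (horizontal axis), both in log2 units, with 1 point for each of 22746 probe sets. Purple points are the 1061 probe sets whose difference changed between salt levels, and the black line marks equal differences. ECS1 and AT2G15560 lie close to the line, while CHI and AT1G47400 lie far from it.

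Some genes lower in Ws by 1 unit or more lay beside each other on the chromosome. Of 198 such genes with a measured neighbour in the gene order of RefSeq assembly TAIR10.1, 16 (8.08%) had a neighbour that was also in the set, against 3.07% of all genes with a measured neighbour. For genes higher by 1 unit or more it was 4 of 133 (3.01%), against 1.98%. These shares are descriptions without a test, and tandem copies among neighbours can share probes. The pairs, picked out after their values were seen, included AT2G32150 (-1.74) and AT2G32160 (at least 48.6-fold lower), AT1G73480 and AT1G73490 (-1.61 and -4.13), COR15B and COR15A, and, on the higher side, AT1G50280 and AT1G50290 (1.41 and 3.50).

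Called shares on the 5 nuclear chromosomes ranged from 12.5% to 15.5% of the probe sets listed with 1 gene. Probe sets of 1 gene did not always move together. Of 146 genes with more than 1 probe set, 23 had a called probe set, 1 had at least 2 called in 1 direction and 1 had calls in both directions. The locus AT3G60420, chosen after its values were seen, gave -1.37 on 1 probe set (adjusted p = 0.00011) and 0.03 on the other (adjusted p = 0.87).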

How the data were processed

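Biotin-labelled cRNA from leaf RNA was hybridised to 12 arrays. Per the submitters' processing notes the authors used GCOS and RMA, and the deposited values are log2 signals per probe set, taken here without further normalization. Of 22746 probe sets tested, 13513 were listed with 1 gene, of which 13436 matched RefSeq, 503 with several and 8730 with none, and genes were named only from the first kind. limma 3.58.1 in R 4.3.3 fitted 1 coefficient per group (6 residual and 3.45 prior degrees of freedom). Errors are SE, and p-values are two-sided and Benjamini-Hochberg adjusted over all probe sets. The unsalted contrast was also simulated over 22746 probe sets, with 50 of them changed at each size tried. There the fit called 16% of the changes placed at 0.5 log2 units, 78% at 1, 94% at 2 and 98% at 3. It made 9 false calls. The real contrast held far more calls (3594). Its groups were also uneven in spread, with a pooled SD of 0.353 for Ws under salt against 0.1445 for Ws without. Whether the simulated shares and false calls carry over to such arrays was not tested.

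The members, the 44 gene lists (30 with at least 3 measured members) and the tests were chosen with earlier results of these data known. Lists used 1 probe set per gene. The genes named are the 15 with the largest called, non-overlapping difference in each direction, up to 6 called members of each list (brightest members where under 2 were called), the 5 largest called changes between salt levels in each direction, and a few genes known to vary among accessions. A ranking of 15 genes with a symbol in each direction was added after values were seen. Probe sets of several genes and DNA sequences were not used here. With 2 arrays per group, their number limits the precision. Alternatives covered a replicate block, a low-signal filter, quantile renormalization, the prior, array weights, subsets of arrays, a stricter threshold and a test against 1 log2 unit. Figures used matplotlib 3.10.9 in Python 3.11.15.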

Additional observations from a re-analysis of the deposited data

Results flagged for a closer look

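For 42 of the genes named by the rules, the difference between Ws and Col at 100 mM NaCl departed from that without salt by limma's test of the difference of differences (adjusted p from 7.6e-05 to 0.049). Values here are Ws minus Col at 100 mM minus the same at 0 mM, in log2 units. Genes lower in unsalted Ws whose gap was smaller, closed or turned with salt were CHI (3.99), AT5G58570 (3.35), EXPA16 (3.20), AT5G05600 (2.75), PDF1.2b (2.46), AT3G28220 (1.98), AT2G32160 (1.85), AT5G03350 (1.77), AT1G76960 (1.76), UF3GT (1.75), SWEET13 (1.73), AT1G66100 (1.63), BGLU47 (1.60), JRG21 (1.60), cwINV6 (1.49), UGT78D2 (1.3), BETA-VPE (1.11), CYP71B23 (1.1), AT1G35710 (1.05) and BCAT4 (0.96). BSMT1 (3.20), a salicylate and benzoate methyltransferase, and Hsp70-2 (0.83), a heat shock protein, changed the same way but were not called without salt. The salted Col arrays of BSMT1 lay far apart, at 5.89 and 8.15, with 8.92 and 8.40 in salted Ws. Its change was 1.81 without both salted replicate 1 arrays. JMT (1.35) was higher in Ws at both salt levels, with the wider gap at 100 mM.

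Genes higher in unsalted Ws whose gap was smaller, closed or turned with salt were AT1G47400 (-5.67), rpl16 (-2.90), AT2G43620 (-2.28), ATPMEPCRB (-1.92), petL (-1.88), OTP81 (-1.87), AT4G21870 (-1.74), AT1G04040 (-1.65), EXO (-1.55), TUB5 (-1.28), ARR15 (-1.27), AT5G26280 (-1.06), rps16 (-1.06) and RBL (-1.05). LTI30 (-2.09) was lower in Ws at both levels, with the wider gap at 100 mM. AT1G07050 (-4.14), AT4G27654 (-3.92), AT1G05575 (-3.38) and AT3G59350 (-3.18) were not called without salt and were lower in Ws at 100 mM. For the 3 plastid genes, the array medians of plastid signal were 8.73 and 11.22 in salted Ws and 9.48 and 11.37 in salted Col. On replicate 1, which had the lower median, petL was brighter (9.98 and 9.38 in salted Ws, 10.71 and 9.88 in salted Col). In both genotypes rpl16 and rps16 were dimmer on it. Without both salted replicate 1 arrays the changes were -3.34 for rpl16, -1.77 for petL and -0.97 for rps16. The part of the array medians in these changes was not tested.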

How the results depend on the processing

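Of 132 named probe sets, 106 were called without salt and 44 of these in each of the 15 alternative fits; none reversed. Tested against 1 log2 unit, 62 of the named calls were lost, and without 1 array between 25 and 29. Calls without salt numbered 3594 (1929 higher, 1665 lower in Ws). They were 5628 with array weights (3086, 2542), 5972 with only the groups compared (3298, 2674), 6234 with only the unsalted arrays (3462, 2772), 6448 without both salted replicate 1 arrays (3574, 2874), 1738 at an adjusted p under 0.01 (830, 908) and 245 tested against 1 log2 unit (47, 198). Without 1 array they were 1643 to 2089 (800 to 942, 843 to 1147). The 63 called list members became 102, 144, 149 and 151 in the first 4 of these fits, 8 against 1 log2 unit, and 33 to 40 without 1 array.

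At 100 mM, 2896 calls became 1431 with array weights and 282 with only the groups compared, and 2189 to 3685 without 1 array. Calls on the change between salt levels numbered 1061, 265 with only those groups, and 386 to 2169 without 1 array. Both salted replicate 1 arrays were also left out together after seeing the data, which gave 3630 calls at 100 mM and 2525 on the change. Of the 42 named genes with a called change, 42 were called with the same sign in that fit. Replicate numbers carry no stated pairing, and same-numbered deviations correlated between -0.352 and 0.697 over pairs of groups. With the replicate block 3585 probe sets were called. After seeing the data, the block was also fitted with only the groups compared, which called 5923 (3265, 2658) and 146 list members, and with crossed numbers, since Ws and Col correlated at -0.14, which called 7229 (3887, 3342) and 167 list members. The low-signal filter, quantile renormalization and the trended prior kept each of these counts within 1.5 times. Array number limits all counts: where 1 array of a group stands alone, its spread is taken from the remaining groups.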
